A study of Mus musculus with 18 samples.

Results

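In all, 10 vascular genes were followed through the layers of the mouse neocortex: 4 endothelial genes (Pecam1, Cldn5, Flt1 and Kdr), 4 pericyte genes (Pdgfrb, Rgs5, Abcc9 and Kcnj8) and 2 smooth muscle genes (Acta2 and Tagln). They were chosen by symbol, with earlier results of these data known, and all 10 were found among the 54446 genes of the count table. RNA was sequenced from the neocortex of 6 mice of the outbred CD-1 stock at postnatal day 7. In utero electroporation, which drives plasmid DNA by electric pulses into cells lining the ventricle of the embryonic brain, had been carried out in all of them at stage E14.5 of embryonic life. Sagittal sections of 300 µm were dissected into an upper part (layers 2-3, here L2-3), layer 4 (L4) and a deep part (layers 5-6, here L5-6), each pooled by mouse, which gave 18 libraries. The protocol names both outer parts infragranular, a term for the deep layers, so layers were taken from the numbers in the sample titles.

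The genotype label of 3 mice was GFP, and the protocol names an empty plasmid as the control. Human FOXP2 (huFOXP2) was the label of 2 mice and mouse Foxp2 (moFoxp2) that of 1 mouse, and the protocol gives a FOXP2 cDNA and a Gfp cDNA for these. The 3 mice with either FOXP2 cDNA are called FOXP2 mice here. The promoter that drives the plasmids is not given in the sources used here. Cells in L4 are described in the labels as GFP-positive, and those in the other layers as GFP-negative. The libraries are of dissected tissue, so a gene's level can change with fewer cells of a type or with less RNA per cell, and these cannot be told apart.

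Endothelial cells line the vessels and, in the brain, form the blood-brain barrier through tight junctions. Pericytes are mural cells wrapped around capillaries, and smooth muscle cells are the contractile mural cells of arterioles and arteries. Vessels enter the cortex from the pial surface, where larger arteries run in the meninges, and endothelial cells recruit mural cells by releasing platelet-derived growth factor that acts on the receptor Pdgfrb. Vascular endothelial growth factor signals to endothelial cells through Kdr, its main signalling receptor, while Flt1 binds the same ligand with weaker signalling.

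All 10 genes are protein-coding in the GENCODE M21 annotation of the mm10 genome. Cldn5, the main claudin of the barrier's tight junctions, is at chr16:18776847-18778262. Acta2, which encodes smooth muscle actin, is at chr19:34241090-34255590. Kcnj8 (chr6:142564837-142571614) and Abcc9 (chr6:142587862-142702315) are neighbours, and their proteins form the pore and the regulatory subunit of one ATP-sensitive potassium channel. Tagln, which encodes the actin-binding protein transgelin, is at chr9:45929619-45936058. Of its exon bases, 67.9% overlap the genes Pcsk7 and Gm48529 on the opposite strand, and the use of strand in counting is not given in the sources used here. Pcsk7 was at 18.8 to 28.2 CPM over the 18 libraries, so reads of Tagln are uncertain.

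Promoter windows of 250 bases before the start of transcription, from RefSeq on GRCm38.p6, were found for 7 of the 10 genes (Cldn5, Flt1, Kdr, Rgs5, Abcc9, Kcnj8 and Acta2). They were searched on both strands for words bound by factors known in vascular cells. The CArG box, bound by serum response factor at smooth muscle genes, was in 0 of the 7 windows and in 1.47% of 32851 windows of all genes. With at most 1 central base other than A or T, a form chosen after no exact box was found, it was in those of Acta2 and Kdr and in 8.59% of all windows. The 2 CArG-like boxes of Acta2 are shown because Acta2 differed most between layers. They lie 84 to 75 and 34 to 25 bases before the RefSeq start, which is inside the GENCODE M21 gene as given above, so the boxes are also within that gene's bounds, at chr19:34255438-34255467 and chr19:34255388-34255417 with their flanks, read on the minus strand with the box in capitals.
Acta2 distal box: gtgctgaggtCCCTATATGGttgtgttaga
Acta2 proximal box: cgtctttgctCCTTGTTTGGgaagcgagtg

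The ETS word AGGAAG, a core that endothelial ETS factors bind, was in 1 of the 7 windows, that of Flt1, and in 29.5% of all windows. The GC box GGGCGG was in 4 of the 7 windows (Kdr, Flt1, Abcc9 and Cldn5) and in 32.7% of all windows. The forkhead word TGTTTAC was in 0 of the 7 and in 3.17% of all windows. None of the matches in the 7 windows overlapped another. The windows of 2 endothelial genes with unlike layer patterns are shown, Flt1 (chr5:147726012-147726261, minus strand) with AGGAAG in capitals and Cldn5 (chr16:18776597-18776846, plus strand) with the complement of the GC box, CCGCCC, in capitals.
Flt1: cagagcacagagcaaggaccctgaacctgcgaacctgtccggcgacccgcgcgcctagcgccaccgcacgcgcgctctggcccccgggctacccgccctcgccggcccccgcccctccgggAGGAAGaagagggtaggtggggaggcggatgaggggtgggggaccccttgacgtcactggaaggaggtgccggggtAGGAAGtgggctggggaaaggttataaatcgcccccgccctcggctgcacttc
Cldn5: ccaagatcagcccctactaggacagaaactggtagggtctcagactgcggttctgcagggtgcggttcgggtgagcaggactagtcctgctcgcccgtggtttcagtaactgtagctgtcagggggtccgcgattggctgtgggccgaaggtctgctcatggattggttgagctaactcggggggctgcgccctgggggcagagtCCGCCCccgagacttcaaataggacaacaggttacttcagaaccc

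Library totals ranged from 10111149 to 23404528 counts. Foxp2, the electroporated gene, was at 44.3 ± 17.8 CPM in L4 of FOXP2 mice and 6.69 ± 1.80 CPM in L4 of GFP mice (SD, n = 3 each, log2 difference 2.75 ± 0.30, adjusted p = 0.0247). In L2-3, whose cells the labels describe as GFP-negative, it was at 31.2 ± 18.2 and 4.51 ± 2.46 CPM, a difference as wide (2.78 ± 0.51) though not called (adjusted p = 0.0829). The 2 groups did not overlap there. In L5-6, a layer with high Foxp2 in GFP mice, it was at 62.2 ± 20.0 and 60.8 ± 8.09 CPM (0.02 ± 0.23, adjusted p = 0.976). The 8 excitatory neuron markers summed to 2636 to 5170.5 CPM in the 18 libraries, with none at 0. The layer 5-6 gene Tle4 was highest in L5-6 (139.6 ± 30.1 CPM in GFP mice, against 28.9 ± 1.26 in L4 and 24.7 ± 3.07 in L2-3). Of 6 layer identity genes, 2 differed between L4 and L2-3 of GFP mice at an adjusted p under 0.05 by edgeR, where 10.6% of all genes did. Both were higher in L4: Fezf2 by 2.52 ± 0.28 and Bcl11b by 1.11 ± 0.17. Bcl11b was also higher in L5-6 than in L2-3, by 2.11 ± 0.16. How cleanly the layers were separated was not tested. GFP mouse 1 stood apart, with 5.25% of counts from mitochondrial genes in L4 and 7.50% in L5-6, against 2.99% to 4.08% and 4.20% to 5.01% in the other 5 mice. It was the highest of 6 mice for 7 of the 10 vascular genes in L4 and for 9 of 10 in L5-6. In L2-3 the moFoxp2 mouse was the highest for 8 of 10.

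The unit of level is CPM, a gene's count as a share of its library total after TMM scaling between libraries. Between genes they were compared per kilobase of exon, in L2-3 of GFP mice. Cldn5 was highest at 111 ± 15.8 CPM per kb (SD, n = 3), followed by Rgs5, a regulator of G-protein signalling that marks pericytes, at 52.7 ± 11.4. Pdgfrb (12.1 ± 1.84), Kdr (11.7 ± 1.09), Acta2 (9.91 ± 0.319) and the adhesion molecule Pecam1 (7.88 ± 0.920) came next. Flt1 (4.26 ± 0.118), Kcnj8 (4.14 ± 1.68) and Abcc9 (3.25 ± 0.178) were lower, and Tagln was at 0.364 ± 0.0554 CPM per kb. The neighbours Pdgfrb and Kdr, Flt1 and Kcnj8, and Kcnj8 and Abcc9 overlapped within 1 SD, and the other neighbours in this order did not. The smooth muscle pair was uneven: Acta2 had 12 to 1151 reads in a library and Tagln 1 to 32.

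**Figure D1:**
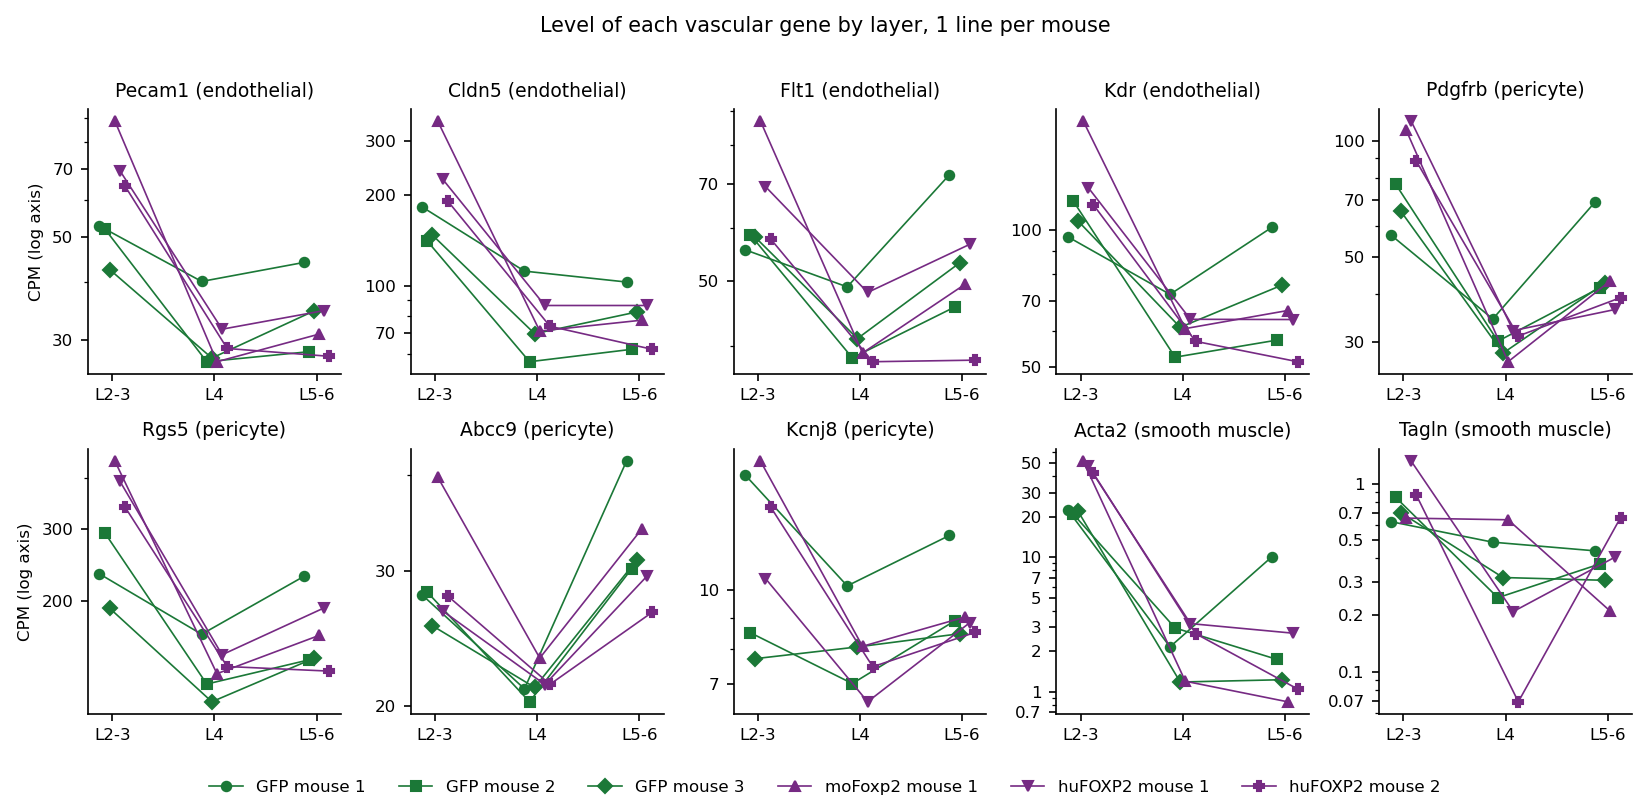
CPM on a log axis in L2-3, L4 and L5-6 for each of the 10 genes, with 1 line per mouse (green, GFP mice; purple, FOXP2 mice). The L2-3 value is the highest of the 3 layers in 6 of 6 mice for Pecam1, Cldn5, Rgs5, Acta2 and Tagln, while Abcc9 is highest in L5-6 in 4 of 6 mice.

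Which layer holds more of the vascular RNA was asked first in GFP mice. In them, 8 of the 9 genes other than Tagln fell from L2-3 to L4, by 0.38 to 3.48 on the log2 scale. Of 15952 genes tested, 10.6% were called in this comparison and 7.25% were called lower. The median log2 difference was -0.80 over the 9 genes and 0.02 over all genes. The test was edgeR's quasi-likelihood test with mouse as a block and Benjamini-Hochberg adjustment, and a gene was called at an adjusted p under 0.05. Tagln passed the filter on low counts only through its L2-3 libraries, so it is given apart and left out of these counts.

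Among the endothelial genes, Cldn5 was at 182, 141 and 147 CPM in L2-3 of GFP mice 1, 2 and 3, at 112, 56.4 and 69.8 in L4 and at 103, 62.0 and 82.3 in L5-6. Every L2-3 value lay above every L4 and L5-6 value. The log2 difference was -1.03 ± 0.16 (SE) for L4 (adjusted p = 0.000838) and -0.95 ± 0.16 for L5-6 (adjusted p = 0.000428), each against L2-3. Pecam1 was at 52.7, 52.0 and 42.5 CPM in L2-3, at 40.02, 26.9 and 27.4 in L4 and at 43.97, 28.2 and 34.6 in L5-6. Each mouse was highest in L2-3, though L5-6 of mouse 1 lay above L2-3 of mouse 3. Pecam1 fell by 0.67 ± 0.13 in L4 (adjusted p = 0.00523) and by 0.48 ± 0.13 in L5-6 (adjusted p = 0.0125). Without GFP mouse 2 both calls were lost, and without GFP mouse 3 that in L4, with values down to -0.52 in L4 and -0.27 in L5-6 (highest adjusted p = 0.0629 and 0.157).

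The receptors followed this less closely. Kdr was at 96.8, 116 and 105 CPM in L2-3 of the 3 GFP mice, at 72.2, 52.5 and 61.1 in L4 and at 102, 57.3 and 75.8 in L5-6. Its L4 values all lay below its L2-3 values, and in L5-6 only mouse 1 reached them. Kdr fell by 0.80 ± 0.15 in L4 (adjusted p = 0.00431) and by 0.48 ± 0.15 in L5-6 (adjusted p = 0.0283). Without GFP mouse 3 both calls were lost, and without GFP mouse 2 that in L5-6, where the value ran from -0.20 to -0.76 (highest adjusted p = 0.0613 in L4 and 0.330 in L5-6). Flt1 was at 55.7, 58.7 and 58.2 CPM in L2-3, at 49.0, 38.3 and 40.98 in L4 and at 72.2, 45.7 and 53.2 in L5-6. Its L5-6 values lay on both sides of the L2-3 values. Flt1 fell by 0.44 ± 0.13 in L4 (adjusted p = 0.0471), and its difference in L5-6 was -0.04 ± 0.13 (adjusted p = 0.846). The call in L4 was lost without GFP mouse 2 or 3 or either huFOXP2 mouse, whose libraries share the fit (highest adjusted p = 0.311). L5-6 and L4 differed for Flt1, by 0.40 ± 0.13 (adjusted p = 0.0328), but this call was lost without GFP mouse 1, GFP mouse 3 or huFOXP2 mouse 2 (highest adjusted p = 0.121).

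The 4 pericyte genes did not share one pattern. Pdgfrb was at 57.0, 77.0 and 65.6 CPM in L2-3 of GFP mice, at 34.5, 30.2 and 28.1 in L4 and at 69.2, 41.5 and 42.7 in L5-6. It fell by 1.12 ± 0.17 from L2-3 to L4 (adjusted p = 0.000774) and was 0.71 ± 0.17 higher in L5-6 than in L4 (adjusted p = 0.00702). The difference of L5-6 from L2-3 was -0.41 ± 0.16 (adjusted p = 0.0711), with GFP mouse 1 alone higher in L5-6. Rgs5 was at 233, 294 and 192 CPM in L2-3, at 165, 125 and 113 in L4 and at 229.5, 143 and 144 in L5-6. All 3 mice were highest in L2-3, and Rgs5 fell by 0.85 ± 0.15 in L4 (adjusted p = 0.00211) and by 0.50 ± 0.15 in L5-6 (adjusted p = 0.0197). The L5-6 value ran from -0.21 to -0.75 as single mice were left out, and its call was lost without GFP mouse 2 or 3 (highest adjusted p = 0.243).

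The channel subunits differed from these. Abcc9 was at 27.9, 28.1 and 25.5 CPM in L2-3 of GFP mice, at 21.1, 20.3 and 21.2 in L4 and at 41.7, 30.2 and 31 in L5-6. The 3 groups did not overlap, with L5-6 highest and L4 lowest. Abcc9 was the only one of the 9 genes called higher in L5-6 than in L2-3, by 0.32 ± 0.11 (adjusted p = 0.0380), and it fell by 0.38 ± 0.11 from L2-3 to L4 (adjusted p = 0.0491). The first call was lost without GFP mouse 1, GFP mouse 3 or huFOXP2 mouse 2, with values of 0.18 to 0.44 (highest adjusted p = 0.264). The second was lost without GFP mouse 2 or 3 or either huFOXP2 mouse (highest adjusted p = 0.301). L5-6 exceeded L4 by 0.70 ± 0.11 (adjusted p = 0.000609). Kcnj8, its partner, was at 15.5, 8.50 and 7.70 CPM in L2-3, at 10.2, 7.01 and 8.05 in L4 and at 12.3, 8.88 and 8.46 in L5-6. The layers overlapped, and Kcnj8 passed in neither comparison with L2-3 (-0.28 ± 0.14, adjusted p = 0.258 for L4; -0.06 ± 0.14, adjusted p = 0.782 for L5-6).

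Acta2 had the widest layer difference of the 9 genes. It was at 22.4, 21.0 and 21.9 CPM in L2-3 of GFP mice 1 to 3, at 2.15, 2.97 and 1.18 in L4 and at 10.1, 1.73 and 1.22 in L5-6. No L4 or L5-6 value reached the L2-3 values, and L5-6 of GFP mouse 1 stood well above the other 2 mice. Acta2 fell by 3.48 ± 0.50 in L4 (adjusted p = 0.000524) and by 2.66 ± 0.45 in L5-6 (adjusted p = 0.000530). Tagln was at 0.628, 0.844 and 0.700 CPM in L2-3, at 0.488, 0.247 and 0.317 in L4 and at 0.439, 0.374 and 0.306 in L5-6, from 3 to 15 reads a library. Its L2-3 values were the highest, and its differences of -1.05 ± 0.55 (adjusted p = 0.259) and -0.96 ± 0.51 (adjusted p = 0.173) did not pass.

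From L2-3 to L5-6 in GFP mice, 5 of the 9 genes fell and 1 rose, where 14.9% of all genes were called lower, 15.3% higher and 30.2% in either direction. From L4 to L5-6, Flt1, Pdgfrb and Abcc9 rose, 3 of the 9 genes, where 16.4% of all genes were called higher and 31% in either direction. The calls nearest the threshold moved with single mice. Without GFP mouse 2, 5 of 9 genes were called between L4 and L2-3 and 3 of 9 between L5-6 and L2-3, and without GFP mouse 3, 4 of 9 and 3 of 9. The calls of Flt1 and Abcc9 between L4 and L2-3 were lost with another normalization (adjusted p = 0.0525 for both, with size factors of the RLE method).

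FOXP2 mice showed the same direction with wider estimates, apart from Abcc9 in L5-6, which was at 0.32 in GFP mice. The test of this widening is given below. All 9 genes fell from L2-3 to L4 (median -1.34), where 21.1% of all genes were called lower and 40.4% in either direction. The call of Abcc9 was lost without the moFoxp2 mouse (adjusted p = 0.0729). From L2-3 to L5-6, 8 of the 9 fell (median -1.25), where 19.4% were called lower and 37.5% in either direction. Abcc9 was the exception, at -0.05 ± 0.11 (adjusted p = 0.757). Both sets of differences rest on the same L2-3 libraries.

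Acta2 was at 51.9, 47.5 and 41.97 CPM in L2-3 of the moFoxp2 mouse and huFOXP2 mice 1 and 2, at 1.19, 3.20 and 2.70 in L4 and at 0.839, 2.72 and 1.04 in L5-6. The L2-3 values stood far above all others, and Acta2 fell by 4.30 ± 0.48 in L4 (adjusted p = 1.44e-05) and by 4.99 ± 0.50 in L5-6 (adjusted p = 4.30e-06). Cldn5 was at 351, 225 and 191 CPM in L2-3, at 71.2, 86.4 and 73.8 in L4 and at 77.3, 86.4 and 62.0 in L5-6. L4 and L5-6 overlapped and lay far below L2-3, with falls of 1.69 ± 0.16 (adjusted p = 3.82e-06) and 1.75 ± 0.16 (adjusted p = 1.88e-06). Rgs5 was at 441, 393 and 339.8 CPM in L2-3, at 132, 147 and 138 in L4 and at 164, 192 and 134 in L5-6. It fell by 1.48 ± 0.15 in L4 (adjusted p = 6.13e-06) and by 1.27 ± 0.15 in L5-6 (adjusted p = 1.56e-05).

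Pdgfrb was at 107, 112 and 88.6 CPM in L2-3 of these mice, at 26.7, 32.1 and 31.1 in L4 and at 43.3, 36.5 and 39.1 in L5-6. The L2-3 values were apart from the rest, with falls of 1.77 ± 0.17 in L4 (adjusted p = 4.36e-06) and 1.37 ± 0.17 in L5-6 (adjusted p = 2.21e-05). Pecam1, Kdr and Flt1 fell by 1.34, 1.16 and 0.77 in L4 and by 1.25, 1.17 and 0.57 in L5-6. Kcnj8 fell by 0.85 ± 0.15 in L4 (adjusted p = 0.000382) and by 0.59 ± 0.14 in L5-6 (adjusted p = 0.00433), where its call was lost without the moFoxp2 mouse or huFOXP2 mouse 2 (highest adjusted p = 0.0719). Tagln, which entered the test through L2-3, differed by -1.78 ± 0.56 in L4 (adjusted p = 0.0208), where it had 1 to 7 reads, and it is not counted as a call. The adjusted p was above 0.05 without huFOXP2 mouse 1 or 2 (highest adjusted p = 0.249) and in DESeq2 (adjusted p = 0.0573).

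Between L4 and L5-6 of FOXP2 mice, Abcc9 was the 1 gene of the 9 that was called, where 15.4% of all genes were called and 8.73% called higher. It was at 23.1, 21.4 and 21.4 CPM in L4 and at 34.04, 29.5 and 26.5 in L5-6. The layers did not overlap, and Abcc9 rose by 0.44 ± 0.11 (adjusted p = 0.0182). The call was lost when any one of the 3 FOXP2 mice was left out (highest adjusted p = 0.113) and without the mouse block (adjusted p = 0.107).

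**Figure D2:**
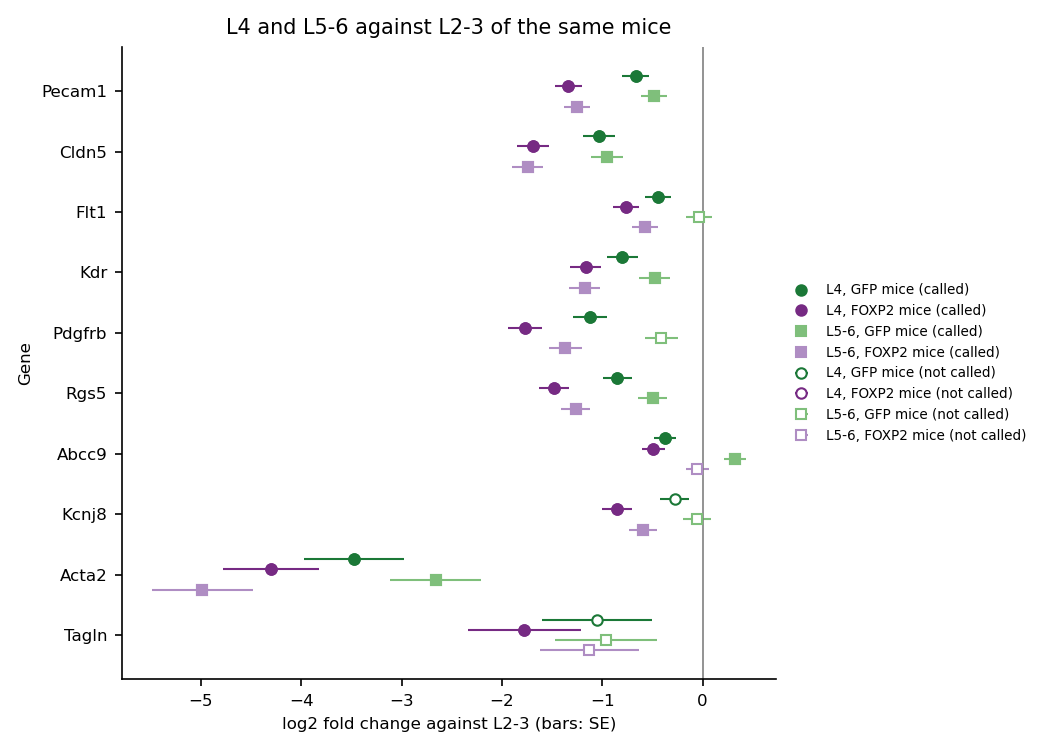
Log2 fold change of L4 (circles) and L5-6 (squares) against L2-3 of the same mice, with SE bars, in GFP mice (green) and FOXP2 mice (purple); filled points have an adjusted p under 0.05, among them Tagln in L4 of FOXP2 mice, which is not counted. Acta2 lies farthest to the left, at -2.66 to -4.99, and Abcc9 in L5-6 is the 1 point right of 0.

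FOXP2 mice were then compared with GFP mice within each layer, the comparison the constructs imply. In L2-3, Acta2 rose 2.16-fold and was the 1 gene of the 9 that was called, where 0.0722% of 15241 genes were called. Its values of 41.97 to 51.9 CPM in FOXP2 mice all lay above the 21.0 to 22.4 CPM of GFP mice (log2 difference 1.11 ± 0.12, adjusted p = 0.0331). The groups were also apart for Cldn5, Pecam1, Pdgfrb and Rgs5, so that 5 of 9 genes had every FOXP2 mouse above every GFP mouse, where 12.3% of all genes did. All 9 differences were above 0, with a median of 0.59 against -0.01 over all genes. Beside these, the median was 0.55 over 10 astrocyte genes, 0.51 over 10 microglia genes and 1.04 over 10 meningeal fibroblast genes. Of these, 6, 6 and 8 were at an unadjusted p under 0.05, and 0 were called. The median was 0.17 over 10 oligodendrocyte genes, 0.41 over 8 interneuron genes and -0.40 over 8 excitatory neuron genes. Of those, 1, 6 and 6 were at an unadjusted p under 0.05, and 0 were called. Over all genes, 2412 of 15241 had an unadjusted p under 0.05.

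Pecam1 was at 88.8, 69.3 and 64.2 CPM in L2-3 of the moFoxp2 mouse and huFOXP2 mice 1 and 2, against 42.5 to 52.7 CPM in GFP mice. The difference was 0.59 ± 0.15 (adjusted p = 0.125). Pdgfrb differed by 0.62 ± 0.14 (adjusted p = 0.106), Rgs5 by 0.70 ± 0.16 (adjusted p = 0.108) and Cldn5 by 0.70 ± 0.22 (adjusted p = 0.176). Flt1 (0.31 ± 0.15), Kdr (0.37 ± 0.16), Kcnj8 (0.33 ± 0.29), Abcc9 (0.20 ± 0.17) and Tagln (0.43 ± 0.36) overlapped between the groups. DESeq2 called 5 of the 9 genes in this layer, adding Pecam1 (adjusted p = 0.0182), Cldn5 (0.0390), Pdgfrb (0.00702) and Rgs5 (0.00555), and called 755 genes in all, against 11 in edgeR.

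Acta2 stayed called when GFP mouse 1 was left out, and not when any one of the other 5 mice was (highest adjusted p = 0.246), although its difference stayed between 1.03 and 1.17. Over all alternatives its adjusted p ran from 4.13e-11 to 0.295, and it was not called with a replicate block over numbers 1 and 2 (adjusted p = 0.158).

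In L4 and L5-6, 0 of the 9 genes were called between FOXP2 and GFP mice by edgeR or by DESeq2, and 0 had an unadjusted p under 0.05 in edgeR. The share of all genes called by edgeR was 0.0275% in L4 and 0.0196% in L5-6. An unadjusted p under 0.05 was found for 457 of 14544 genes in L4 and 946 of 15330 in L5-6. In L4 the differences ran from -0.19 to 0.24 with a median of -0.04, 3 of them above 0 and 6 below. Without GFP mouse 1, 8 of the 9 were above 0 and 1 below in L4, with a median of 0.09. In L5-6 all 9 were below 0, with a median of -0.21. Without GFP mouse 1, 5 of the 9 were below 0 and 4 above in L5-6, with a median of -0.02. Acta2 in L5-6 was at -1.49 ± 0.85 (adjusted p = 0.713) with this mouse and at 0.04 without it.

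**Figure D3:**
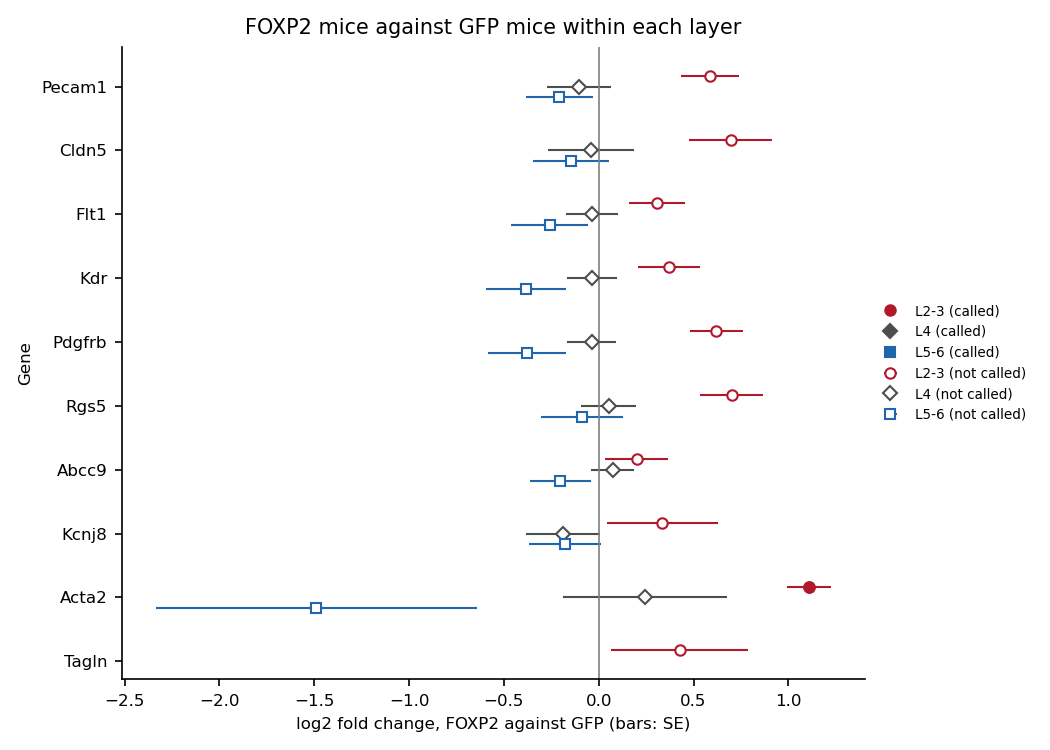
Log2 fold change of FOXP2 mice against GFP mice in L2-3 (red), L4 (grey) and L5-6 (blue) for each gene, with SE bars; filled points are called. The 10 L2-3 points lie at 0.20 to 1.11, and the L4 and L5-6 points lie near or below 0, with Acta2 in L5-6 at -1.49. Tagln was tested in L2-3 only.

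The difference between layers in the effect of FOXP2 was tested as its own term. A value below 0 here means a lower FOXP2 against GFP difference in the first layer than in the second, not a fall in level. For L5-6 minus L2-3, 6 of the 9 genes were called and all 6 were below 0. Of all genes, 8.66% were called lower and 15.4% in either direction. The 6 members were Pdgfrb (-0.96 ± 0.23, adjusted p = 0.0186), Pecam1 (-0.77 ± 0.18, adjusted p = 0.0177), Cldn5 (-0.79 ± 0.22, adjusted p = 0.0295), Rgs5 (-0.77 ± 0.21, adjusted p = 0.0264), Kdr (-0.69 ± 0.21, adjusted p = 0.0435) and Acta2 (-2.33 ± 0.71, adjusted p = 0.0415). Flt1 (-0.53 ± 0.18, adjusted p = 0.0634), Kcnj8 (-0.53 ± 0.20, adjusted p = 0.0803) and Abcc9 (-0.37 ± 0.16, adjusted p = 0.113) did not pass. The median of the 9 was -0.77 against 0.00 over all genes. Of 10 genes each, 6 astrocyte genes (median -0.81), 4 microglia genes (median -0.72) and 3 oligodendrocyte genes (median -0.78) were called in the same test, all of them lower. Of 8 excitatory neuron genes 4 were called, all higher (median 0.66). Of 8 interneuron genes 1 was called higher and 1 lower.

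These calls rested on single mice. The number called was 0 without huFOXP2 mouse 1, 1 without the moFoxp2 mouse, 2 without huFOXP2 mouse 2 or GFP mouse 3, 3 without GFP mouse 1 and 7 without GFP mouse 2, and it was 0 without the mouse block. For L4 minus L2-3 all 9 differences were below 0 (median -0.64) and 0 were called by edgeR, as were 0% of all genes. Of the 9, 5 had an unadjusted p under 0.05, as did 2831 of all 15952 genes. DESeq2 called 1 of the 9 and 527 genes in all. For L5-6 minus L4, 0 of the 9 were called by edgeR or DESeq2, and edgeR called 0.00627% of all genes. An unadjusted p under 0.05 in edgeR was found for 0 of the 9 and for 892 of all 15952 genes.

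Markers of meningeal fibroblasts, the connective tissue cells of the brain's covering, moved with the layers. The summed level of 10 such genes was 416, 1268 and 949 CPM in L2-3 of GFP mice 1, 2 and 3 and 1488, 2217 and 1605 CPM in L2-3 of the moFoxp2 mouse and huFOXP2 mice 1 and 2. It was 24.1 to 95.4 CPM in L4 and 30.9 to 47.9 CPM in L5-6, and no marker was at 0 in every library of a group. Within L4 9 of the 10 passed the filter on low counts, and within L5-6 6 did, so some entered the layer tests only through L2-3 and no count of their calls is given. Their part in the layer differences and in the FOXP2 differences of the vascular genes was not tested.

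Markers of other brain cells were also summed. In L2-3, 10 astrocyte genes summed to 3267 to 3973 CPM in GFP mice and 3529 to 5418 in FOXP2 mice, 10 microglia genes to 327 to 480 and 426 to 604, and 10 oligodendrocyte genes to 671 to 778 and 716 to 1046. In L5-6 the astrocyte sums were 3059 to 5683 CPM in GFP mice and 3656 to 3913 in FOXP2 mice, those of microglia 373 to 829 and 357 to 490, and those of oligodendrocytes 1517 to 4534.5 and 1376 to 2073. No marker of these lists was at 0. Summed hemoglobin and other red blood cell genes were at 155 to 246 CPM in L2-3 of GFP mice and 287 to 645 CPM in L2-3 of FOXP2 mice. For these the FOXP2 effect in L5-6 minus L2-3 was called lower for all 4 genes tested of 5, where 8.66% of all genes were called lower. Excitatory neuron markers went the other way, at 3205 to 3712 CPM in L2-3 of GFP mice and 2636 to 2919 CPM in L2-3 of FOXP2 mice. In L5-6 these markers were at 2752, 4834 and 4423 CPM in GFP mice 1, 2 and 3 and at 4347 to 5170 CPM in FOXP2 mice. The part of these cells in the results was not tested.

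**Figure D4:**
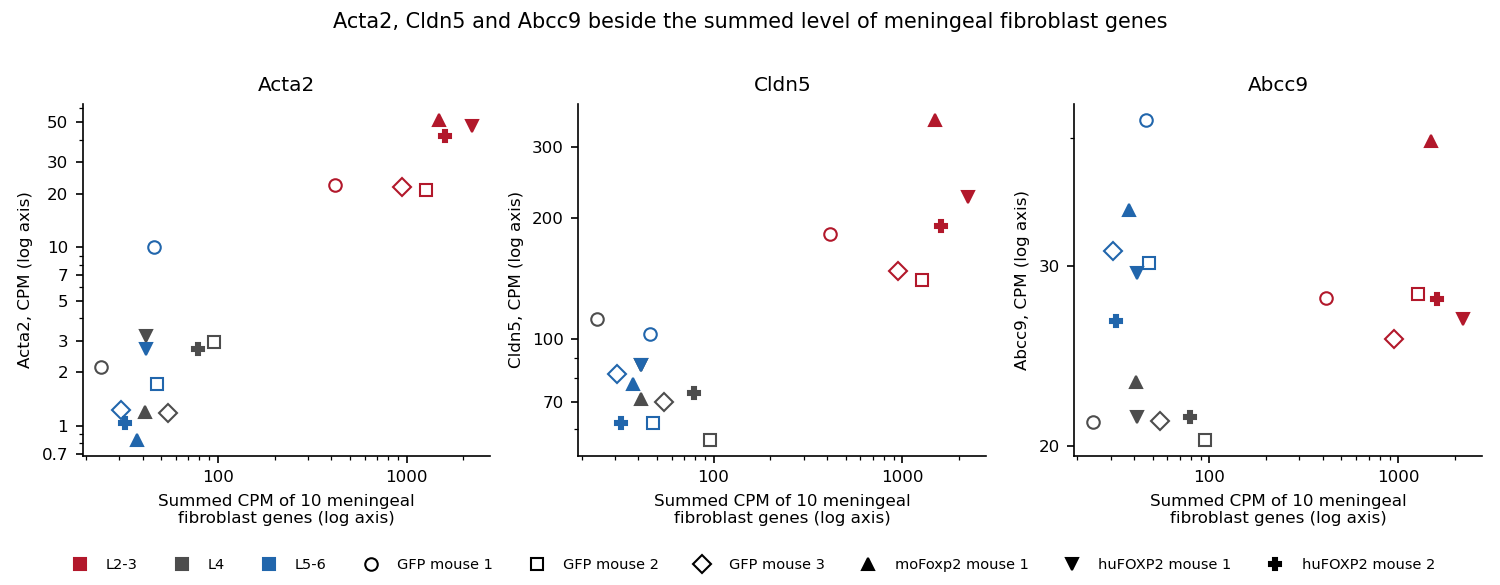
CPM of Acta2, Cldn5 and Abcc9 against the summed CPM of 10 meningeal fibroblast genes, both on log axes, with 1 point per library (red, L2-3; grey, L4; blue, L5-6; open, GFP mice; filled, FOXP2 mice). The L2-3 libraries lie to the right of all others, at 416 to 2217 CPM, and hold the highest Acta2 and Cldn5 values, whereas Abcc9 is highest in an L5-6 library.

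Other genes listed for the same cells were counted as a description. The lists were chosen with earlier results of these data known, so their counts are not separate support. Of 20 further endothelial genes, 15 fell from L2-3 to L4 in GFP mice (median -0.76), where 7.25% of all genes were called lower. From L2-3 to L5-6 11 fell and 1 rose (median -0.53), where 14.9% of all genes were called lower and 15.3% higher. Cdh5, the cadherin of endothelial junctions, was at 56.1 to 85.3 CPM in L2-3, 21.5 to 28.8 in L4 and 22.3 to 32.6 in L5-6 of GFP mice. It fell by 1.58 ± 0.16 in L4 (adjusted p = 5.00e-05) and by 1.48 ± 0.16 in L5-6 (adjusted p = 1.47e-05). Tie1, a receptor tyrosine kinase of endothelial cells, fell by 0.95 ± 0.13 and 0.80 ± 0.13. In FOXP2 mice 19 and 18 of the 20 fell, where 21.1% and 19.4% of all genes were called lower. In the FOXP2 effect for L5-6 minus L2-3, 11 of the 20 were called below 0, where 8.66% of all genes were.

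Of 10 further pericyte genes, 6 fell from L2-3 to L4 in GFP mice, where 7.25% of all genes were called lower. From L2-3 to L5-6 6 fell and 1 rose, where 14.9% of all genes were called lower and 15.3% higher. Vtn, which encodes vitronectin, was at 99.0 to 167 CPM in L2-3, 22.1 to 30.3 in L4 and 28.3 to 44.3 in L5-6. It fell by 2.38 ± 0.22 in L4, and in L5-6 it fell by 2.04 ± 0.21. From L4 to L5-6 in GFP mice 2 of the 10 rose and 1 fell, where 31% of all genes were called and 16.4% called higher. The receptor Notch3 rose by 0.62 ± 0.16 and the proteoglycan gene Cspg4 by 0.80 ± 0.19. Gucy1a1, a subunit of the nitric oxide receptor, fell by 0.28 ± 0.08. In the same comparison 10 of 10 oligodendrocyte genes were called higher (median 1.95). Which cells these 3 changes came from was not tested. In FOXP2 mice 9 of the 10 further pericyte genes fell from L2-3 to L4 and 1 rose, where 21.1% of all genes were called lower. From L2-3 to L5-6 7 fell, where 19.4% of all genes were called lower.

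Of 11 further smooth muscle genes 8 were tested, and 5 of these fell from L2-3 to L5-6 in GFP mice, where 14.9% of all genes were called lower. Only 6 passed the filter on low counts within L4, so no count is given for that layer. Myh11, the smooth muscle myosin heavy chain, was at 7.36 to 9.23 CPM in L2-3, 1.31 to 2.06 in L4 and 0.701 to 4.10 in L5-6 of GFP mice, and fell by 2.38 ± 0.39 in L5-6 (adjusted p = 0.000413). Myl9, a myosin light chain, fell by 1.29 ± 0.14 in L4 and by 0.62 ± 0.13 in L5-6, and was 0.67 ± 0.14 higher in L5-6 than in L4. In FOXP2 mice 6 of the 8 fell in L5-6, where 19.4% of all genes were called lower. In L2-3 the median difference of FOXP2 from GFP mice was 0.82 for these 8, 0.59 for the other endothelial genes and 0.59 for the other pericyte genes. In each 0 were called by edgeR, and 5, 14 and 6 were at an unadjusted p under 0.05. Over all genes, 2412 of 15241 were at such a p in this layer.

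Of 19 signalling genes of vessels, 11 fell from L2-3 to L4 in GFP mice, where 7.25% of all genes were called lower. From L2-3 to L5-6 6 fell and 4 rose, where 14.9% of all genes were called lower and 15.3% higher. The ligand Vegfa was at 37.6 to 58.2 CPM in L2-3, 38.1 to 62.7 in L4 and 54.6 to 94.2 in L5-6 of GFP mice, with L5-6 higher than L2-3 by 0.60 ± 0.10 (adjusted p = 0.000376) and than L4 by 0.51 ± 0.10 (adjusted p = 0.00170). Its receptor Kdr had fallen in L5-6, as given above. Nrp2, a co-receptor of this family, fell by 1.63 ± 0.17 in L4 and by 1.01 ± 0.16 in L5-6, and Adgra2, a receptor for brain vessel growth, by 1.09 ± 0.14 and 1.03 ± 0.14. In the FOXP2 effect for L5-6 minus L2-3, 10 of the 19 were called below 0, where 8.66% of all genes were. Among the 10 was Nrp2 (-1.43 ± 0.23, adjusted p = 0.00859).

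Levels of the members were compared over the 18 libraries, with Abcc9 and Tagln given apart. Among the other 8 genes the 28 correlations of log2 CPM ran from r = 0.63 to 0.98, the highest between Pecam1 and Cldn5. Abcc9 was least like Tagln (r = 0.25) and Acta2 (r = 0.32) and most like Flt1 (r = 0.73). With the 8 genes other than Abcc9, Tagln was at r = 0.50 to 0.69. The libraries come from 6 mice with 3 layers each, so these values describe shared layers and mice and carry no test. Tagln rests on few reads, which limits its values.

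**Figure D5:**
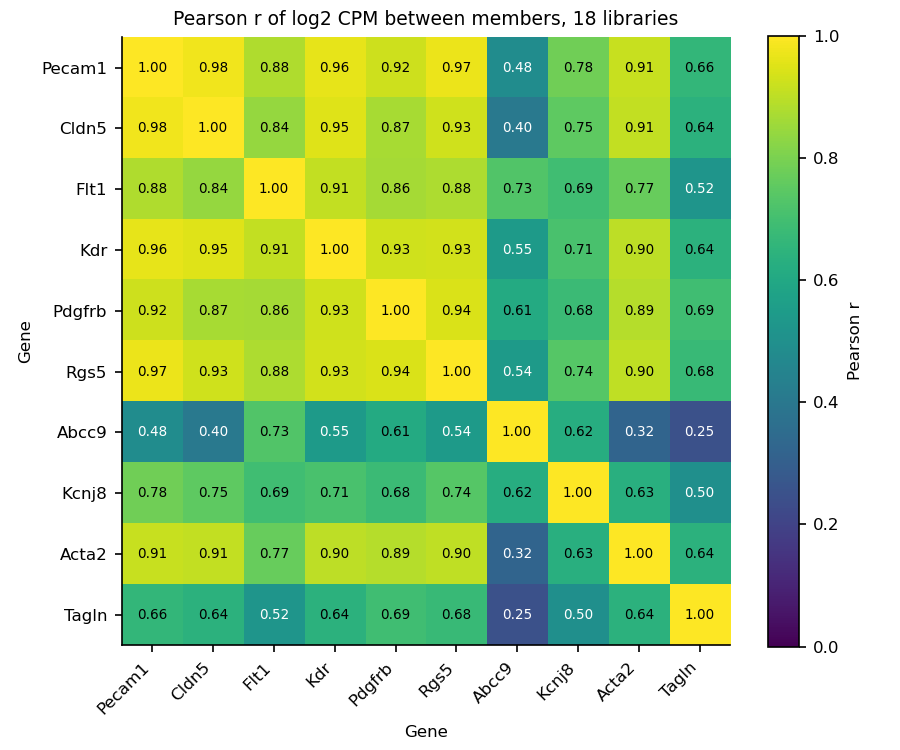
Pearson r of log2 CPM between each pair of the 10 genes over 18 libraries, on a color scale from 0 to 1 with the value printed in each cell. The row of Abcc9 runs from 0.25, with Tagln, to 0.73, with Flt1, and Pecam1 and Cldn5 reach 0.98.

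Across 14334 genes with a mean of at least 1 CPM, the 5 genes most like each member by Pearson r over the 18 libraries were listed. Those of Cldn5 were Esam, an endothelial adhesion molecule (r = 0.98), Slc38a5, Ramp2, Pecam1 and Vwa1. Those of Pecam1 were Rhoj (r = 0.98), Acvrl1, Slc39a8, Igfbp7 and Cldn5, so that Pecam1 and Cldn5 were on each other's list. Kdr shared Slc39a8 and Acvrl1 with Pecam1, and its others were Selenop, the barrier efflux pump gene Abcb1a and the transcription factor gene Ets1 (r = 0.96 to 0.97). Flt1 was most like Slco2b1 (r = 0.96), Arap3, its relative Flt4, Clic4 and the endothelial co-receptor gene Eng.

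Pdgfrb was most like Bgn, which encodes the matrix proteoglycan biglycan (r = 0.99), Itga1, Tanc1, Vim and Stab1. Rgs5 was most like Apcdd1 (r = 0.98), Slc16a1, Slfn5, Slc39a8 and Mxd4. Acta2 was most like Tnfsf10 (r = 0.98), Pla2g3, Emp1, Rbpms and Myh11, the last being the smooth muscle myosin gene described above. Abcc9 had none of these on its list, which held Soat1 (r = 0.93), Parvb, Rarres1, Fgfbp3 and Cd9. Kcnj8 was most like the ribosomal protein gene Rpl23 (r = 0.92), the endothelial gene Egfl7, Phc2, Ppard and Hmg20b. Tagln was most like Ror1 (r = 0.84), Irgm2, Cmbl, Pmp22 and Flnc.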

How the data were processed

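The authors deposited raw read counts per gene, with no normalization. STAR, HTSeq and the mm10 genome are named per the submitters' processing notes, and no source used here gives versions or strand use. Groups came from the sample titles, since the protocol calls both L2-3 and L5-6 infragranular, libraries of a construct with the same number were taken as 1 mouse, and each mouse was 1 replicate. Deviations of libraries of the same mouse correlated over 15952 genes (r = 0.26 to 0.63 over 18 pairs), so mouse was a block in comparisons of layers. The 10 genes and the gene lists were chosen with earlier results of these data known.

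Counts were tested with edgeR 4.0.16 in R 4.3.3 by the quasi-likelihood test, with TMM factors and filterByExpr (minimum count 10, minimum total 15), on all genes. Layers and the difference in the FOXP2 effect came from 1 fit over 18 libraries, and FOXP2 against GFP from the 6 libraries of a layer. Adjusted p-values are Benjamini-Hochberg values over all genes tested, with a threshold of 0.05. Standard errors were taken as log2 fold change over √F. CPM values were computed from the deposited counts with TMM factors, and log2 CPM for correlations with a prior count of 2. Named genes were all members, the 5 most like each and at most 3 genes of smallest p from a list with a called gene. The scripts were tested on simulated data. Alternatives were RLE size factors, no filter, DESeq2 1.42.0, other blocks or libraries, and leaving out each mouse.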

Additional observations from a re-analysis of the deposited data

Results flagged for a closer look

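For 6 genes the FOXP2 effect in L5-6 differed from that in L2-3 by edgeR's test of the difference itself, at an adjusted p under 0.05. The log2 differences were -0.77 for Pecam1, -0.79 for Cldn5, -0.69 for Kdr, -0.96 for Pdgfrb, -0.77 for Rgs5 and -2.33 for Acta2. Beside them, 15.4% of all 15952 genes were called in this test. So were 6 of 10 astrocyte genes, 4 of 10 microglia genes and 3 of 10 oligodendrocyte genes, all lower. Excitatory neuron genes were called higher for 4 of 8, and interneuron genes higher for 1 and lower for 1 of 8. Without GFP mouse 1 the value of Acta2 was -1.12 (adjusted p = 0.193), and Pecam1, Pdgfrb and Kcnj8 were the 3 genes called. The meningeal sums in L2-3, given in the report, were higher in all 3 FOXP2 mice than in all 3 GFP mice, and their part in these differences was not tested.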

How the results depend on the processing

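With 3 mice a group precision is low, and Tagln rests on 1 to 32 reads. Counted were 889 refits of single members, and the comparisons left out of this count are given below. Of these refits, 764 kept their direction and their side of the threshold, 86 lost a call and 23 gained one. The other 16 changed sign, none of them a called value. RLE factors moved no median of all genes by over 0.1. The causes of the changes below were not tested.

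Between FOXP2 and GFP mice in L2-3, with 11 genes and 1 of 9 members called, RLE factors gave 4 genes, no filter on low counts 865 and 5 members, DESeq2 755 and 5, a fit over 18 libraries 43 and 0, the replicate block over numbers 1 and 2 6 and 0, and these numbers without a block, chosen after seeing the data, 5 and 0. In L4 (4 genes) no filter gave 189, DESeq2 32 and the block 7, and in L5-6 (3 genes) no filter gave 323, DESeq2 56 and the fit over 18 libraries 17. Replicate numbers were shared by GFP and FOXP2 mice without pairing them (r of deviations -0.26 to 0.34, 4 of 9 pairs over 0.1).

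In GFP mice, the fit without the replicate block of mice gave 746 genes for L4 against L2-3 (1683 with it), 2501 genes and 2 members for L5-6 against L2-3 (4816 and 6) and 2405 genes for L5-6 against L4 (4945). In FOXP2 mice it gave 4104 (6446), 3779 (5985), and 734 genes and 0 members for L5-6 against L4 (2452 and 1). For the FOXP2 effect it gave 0 genes and 0 members in L5-6 minus L2-3 (2457 and 6) and 0 genes in L5-6 minus L4 (1). The fit over the 9 libraries of the named mice gave 952 genes for L4 against L2-3 and 3 members for L5-6 against L2-3 in GFP mice, and 2 members for L5-6 against L4 in FOXP2 mice. No filter gave 2684 genes for L4 against L2-3, 6 members for L5-6 against L4 in GFP mice and 3 in FOXP2 mice. For the FOXP2 effect in L4 minus L2-3 (0 genes), RLE factors gave 1 gene, no filter 1326 genes and 4 members, and DESeq2 527 and 1. In L5-6 minus L4 no filter gave 255 genes and 1 member, and DESeq2 11 genes. Kdr in L5-6 against L4 of FOXP2 mice, at -0.01, was 0.00058 without the block and 0.011 over 9 libraries.

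Leaving out each mouse in turn gave 3 to 195 genes and 0 to 1 members for FOXP2 in L2-3, 3 to 6 genes in L4 and 2 to 4 in L5-6, with 0 members in both. For L4 against L2-3 it gave 486 to 2908 genes and 4 to 8 members in GFP mice and 4233 to 7261 and 8 to 9 in FOXP2 mice. For L5-6 against L2-3 it gave 2982 to 4640 and 3 to 6, and 3922 to 7104 and 7 to 8. For L5-6 against L4 it gave 2921 to 4714 and 2 to 4, and 709 to 3881 and 0 to 2. For the FOXP2 effect it gave 0 to 14 genes and 0 members in L4 minus L2-3, 1 to 3414 and 0 to 7 in L5-6 minus L2-3, and 0 to 2 genes and 0 members in L5-6 minus L4. Values that changed sign included Abcc9 (-0.0099 to 0.30) for FOXP2 in L2-3 and Acta2 (-2.16 to 0.039) in L5-6. Without GFP mouse 1, Cldn5 (0.059), Rgs5 (0.19) and Kcnj8 (0.017) also turned from below to above 0 in L5-6. So did Pecam1 (0.11), Cldn5 (0.29), Flt1 (0.075), Kdr (0.091) and Pdgfrb (0.052) in L4. These changes in L4, and those of Cldn5, Rgs5 and Kcnj8 in L5-6, were not among the sign changes counted above. For FOXP2 against GFP mice, that count held no member in L4 and only Acta2 in L5-6. It also held no member for the FOXP2 effect in L4 minus L2-3 or in L5-6 minus L4. In GFP mice the values that changed sign were Flt1 (-0.26 to 0.13) and Kcnj8 (-0.14 to 0.084) for L5-6 against L2-3. For L5-6 against L4 they were Cldn5 (-0.0025 to 0.20), Acta2 (-0.33 to 1.55) and Tagln (-0.067 to 0.22). In FOXP2 mice they were Abcc9 (-0.15 to 0.043) for L5-6 against L2-3, and Cldn5 (-0.12 to 0.051), Kdr (-0.075 to 0.060) and Tagln (-0.37 to 1.93) for L5-6 against L4. Tagln in the FOXP2 effect for L5-6 minus L2-3 ran from -0.73 to 0.22.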
